A study of Mus musculus with 93 samples.

Results

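The genes described here are 10 markers of the pluripotent state, Pou5f1, Nanog, Zfp42, Dppa3, Dppa4, Dppa5a, Utf1, Tdgf1, Sox2 and Lin28a, which were taken by name from a count table of 24514 gene symbols. All 10 were present in the table. Their levels were followed in 93 RNA-seq libraries, each made from 10 sorted mouse cells in a well of a 96-well plate. All cells carried the alleles Hcn4-GFP, Tbx1-Cre and Ai9. GFP reports current Hcn4 expression and marked first heart field cells, whereas RFP from the Ai9 reporter stays on in every descendant of a cell that once expressed Tbx1-Cre and marked the second heart field lineage. The in vivo groups were 5 wells of GFP+ and 4 wells of RFP+ cells from mouse embryonic heart, with E8.5 in the sample titles and E7.75 in the dissection protocol. The in vitro groups were 38 wells of GFP+ and 46 wells of RFP+ cells from spheroids at day 5.5, grown from 1 embryonic stem cell (ESC) line of the same genotype and induced with Activin A and Bmp4. The spheroid groups thus stand on 1 line, and the labels do not say how many differentiations or embryos the wells came from. P-values therefore measure the spread between wells, which may be technical.

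Pluripotent cells of the early embryo and ESCs are held in that state by a small network of transcription factors with Oct4 (Pou5f1), Sox2 and Nanog at its centre. The naive state, close to the inner cell mass, expresses Zfp42, Dppa3 and Dppa5a, and the network is switched off as cells pass through the primitive streak and form mesoderm. Some of its members have further roles, such as Tdgf1 in Nodal signalling and Lin28a in the control of let-7 microRNAs, and stay on in mesoderm or later tissues.

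The counted reads per library were 712732 to 2525460 in GFP+ embryo wells, 1246546 to 1479957 in RFP+ embryo wells and 445071 to 5658882 in RFP+ spheroid wells. GFP+ spheroid wells held 828193 to 4371849 reads, except well C9 with 6288 reads, in which 9 of the 10 members had no count. GFP+ embryo libraries detected 6189 to 8302 genes and RFP+ embryo libraries 10263 to 13052, so a gene at 0 in GFP+ embryo wells was read against a less complex library. Hcn4 averaged 14.1 CPM (counts scaled to a library total of 1000000 counted reads; SD 15.3, n = 5) in GFP+ and 0.338 CPM (SD 0.676, n = 4) in RFP+ embryo wells, and 7.34 CPM (SD 4.43, n = 38) against 0.441 CPM (SD 0.663, n = 46) in spheroid wells. Tbx1 had no count in GFP+ embryo wells, averaged 3.79 CPM (SD 3.33, n = 4) in RFP+ embryo wells, and was at 0.0303 CPM (SD 0.132, n = 38) in GFP+ and 2.49 CPM (SD 1.82, n = 46) in RFP+ spheroid wells. A list of 10 cardiomyocyte genes summed to 20395 to 48444 CPM in GFP+ embryo wells and 1119 to 2263 CPM in RFP+ embryo wells, but to a median of 63.0 CPM in GFP+ and 57.6 CPM in RFP+ spheroid wells. The spheroid wells of RFP+ cells lay in plate columns 1 to 6 and those of GFP+ cells in columns 7 to 11, so population and plate position cannot be told apart. RFP+ spheroid wells of columns 3 and 4 in the same row resembled each other more than those of columns 5 and 6 did. The labels do not say whether they are technical repeats, and the 46 wells may hold fewer distinct samples. With these 7 pairs summed, 7 members were still called between the spheroid populations and 5 between RFP+ spheroid and embryo wells.

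The members split into genes that were essentially silent in the embryo and genes that were not. Pou5f1, Zfp42, Dppa3, Dppa4 and Utf1 had no count in any of the 9 embryo wells, and Nanog and Dppa5a had at most 3 counts in a well. Lin28a was read in all 9 and Tdgf1 in 4 of them. Sox2 was read in the 4 RFP+ embryo wells, with at most 6 counts, and in no GFP+ embryo well. Embryo zeros were common, since 15111 of all 24514 genes had a count in any embryo well. In spheroids, by contrast, a GFP+ well held a median of 9 members above 3 counts and an RFP+ well a median of 6. At least 8 members were above 3 counts in 34 of 38 GFP+ and 8 of 46 RFP+ spheroid wells. Because each library is a pool of cells, fewer cells of a type and less RNA per cell cannot be told apart. A count of 0 allows up to 3 counts in a library, which is 2.61 CPM on average in GFP+ and 2.17 CPM in RFP+ embryo wells. This limit covers counting error only.

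**Figure D1:**
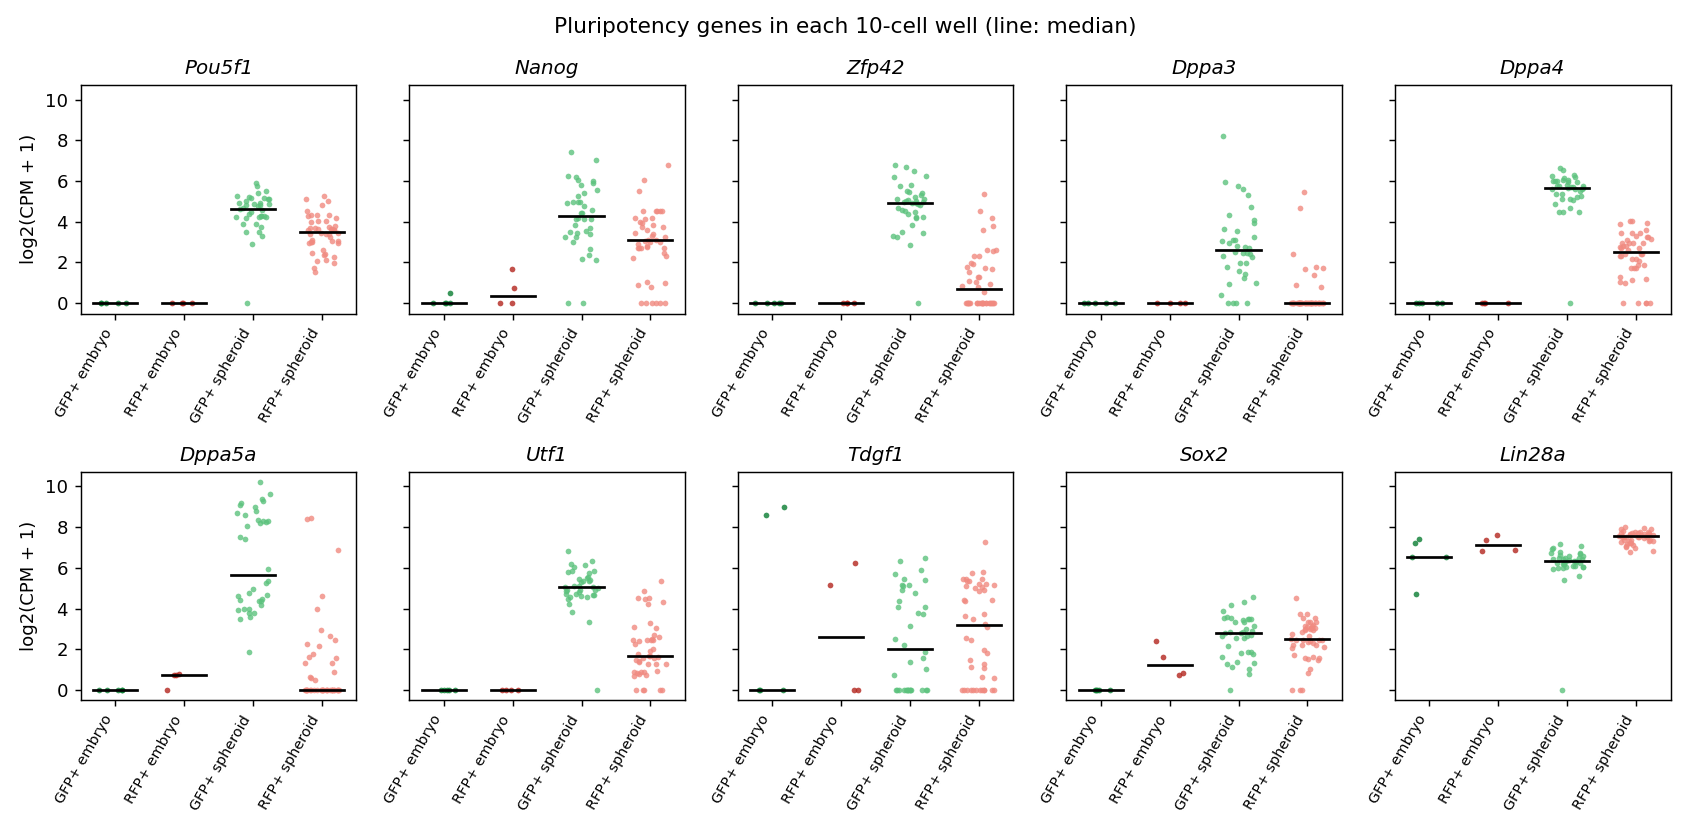
Level of each member in every well, as log2(CPM + 1) on the vertical axis, with 1 point per 10-cell well, the 4 groups on the horizontal axis and a black line at each group's median. Pou5f1, Zfp42, Dppa3, Dppa4 and Utf1 lie at 0 in all 9 embryo wells, Lin28a is read in all of them, and the GFP+ spheroid point at 0 in 9 of the panels includes well C9.

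The core factors come first. Pou5f1 encodes Oct4, the POU factor without which no pluripotent cells form (chr17:35506018-35510772, plus strand, in mm10, protein coding). It ranged from 6.47 to 59.1 CPM in the GFP+ spheroid wells other than C9, with a median over all 38 wells of 23.985 CPM, and from 1.85 to 36.9 CPM, median 10.5 CPM, in the 46 RFP+ wells. The ranges overlapped, but 34 of 38 GFP+ wells lay above the RFP+ median. Nanog, a homeobox factor that stabilises self-renewal (chr6:122707489-122714633, plus strand), reached 169 CPM in GFP+ wells with a median of 18.8 CPM, and 108 CPM in RFP+ wells with a median of 7.49 CPM. It had no count in 2 GFP+ and 6 RFP+ spheroid wells, the latter being wells E, F and G of columns 3 and 4. Sox2, the partner of Oct4 on DNA and later a neural factor (chr3:34650405-34652461, plus strand, inside the long non-coding gene Sox2ot), was low in both spheroid populations. Its median was 6.01 CPM, highest 22.9 CPM, in GFP+ wells and 4.58 CPM, highest 22.2 CPM, in RFP+ wells. Sox2 and Sox2ot lie on the same strand, so reads of shared sequence cannot be assigned to either with certainty. Sox2ot averaged 0.703 CPM (SD 0.813, n = 4) in RFP+ embryo wells, had no count in GFP+ embryo wells and averaged 1.91 CPM (SD 2.51, n = 38) in GFP+ spheroid wells.

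Zfp42, Dppa3, Dppa4 and Utf1 differed more between the spheroid populations than the core factors did. Zfp42 (Rex1), a zinc finger gene used as a marker of naive ESCs (chr8:43295063-43306980, minus strand), had a median of 29.5 CPM and a highest value of 108 CPM in GFP+ wells. In RFP+ wells its median was 0.622 CPM and its highest value 39.8 CPM, and it was counted in 24 of 46 wells. Dppa3 (Stella), a maternal factor that protects methylated DNA in the zygote (chr6:122626410-122630272, plus strand), had a median of 5.17 CPM in GFP+ wells, with well F8 at 291 CPM. It was counted in 9 of 46 RFP+ wells, in 5 of them above 3 counts. Dppa4, a chromatin protein of pluripotent cells and the germ line (chr16:48283733-48294237, plus strand), lay between 20.9 and 98.7 CPM in the GFP+ wells other than C9 and between 0.0 and 15.3 CPM in RFP+ wells. All 37 of those GFP+ wells were above every RFP+ well, whereas C9 had no Dppa4 count. The share of all genes that separate the spheroid populations in this way is not given here. Utf1, a chromatin-bound factor of undifferentiated cells (chr7:139943789-139945112, plus strand), had a median of 32.7 CPM, highest 113 CPM, in GFP+ and 2.13 CPM, highest 40.5 CPM, in RFP+ wells.

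Dppa5a, an RNA-binding protein of ESCs and germ cells (chr9:78367052-78368177, minus strand), had the widest range. In GFP+ wells it ran from 2.62 to 1183 CPM with a median of 49.8 CPM, and in RFP+ wells from 0.0 to 347 CPM with a median of 0.0 CPM. It was counted in all 38 GFP+ wells, where the value of C9 rests on 2 reads, and in 19 of 46 RFP+ wells. Whether reads that also match copies of the gene elsewhere were counted is not given in the sources used here, so its level is uncertain to that extent.

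Tdgf1 and Lin28a behaved differently from the rest. Tdgf1 (Cripto), the membrane-anchored co-receptor for Nodal (chr9:110939603-110946158, minus strand), had a median of 3.10 CPM, highest 88.3 CPM, in GFP+ and 8.00 CPM, highest 154 CPM, in RFP+ spheroid wells, with no count in 14 of 38 and 12 of 46 wells. Lin28a, an RNA-binding protein that blocks let-7 maturation (chr4:134003330-134018841, minus strand), was the steadiest member. It ranged from 41.6 to 141 CPM in GFP+ wells other than C9, with a median of 80.7 CPM, and from 108 to 254 CPM in RFP+ wells, with a median of 187 CPM. Every RFP+ well was above the GFP+ median and 40 of 46 were above every GFP+ well.

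Levels of different genes were set side by side only after division by exonic length. In GFP+ spheroid wells Dppa5a was first with 373 CPM per kb (SD 452, n = 38). Utf1 followed with 31.01 CPM per kb (SD 17.4) and Dppa4 with 30.1 CPM per kb (SD 12.2), which did not differ beyond their spread. The means of Lin28a, 20.5 (SD 6.52), and Dppa3, 20.2 CPM per kb (SD 53.7), did not differ beyond their spread either. Their medians were 20.2 and 5.80 CPM per kb, and without well F8 the mean of Dppa3 fell from 18.1 to 10.7 CPM. By mean, Sox2 was last with 3.30 CPM per kb (SD 2.56). In RFP+ spheroid wells Lin28a was first with 45.7 CPM per kb (SD 8.68, n = 46), Dppa5a second with 30.8 CPM per kb (SD 116), carried by a few wells, and Zfp42 last with 1.72 CPM per kb (SD 3.82).

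Promoter windows, from 250 bases before to 50 bases after the annotated start, were found in the RefSeq table (GRCm38.p6) for 7 members. Dppa3, Dppa4 and Dppa5a were not matched. The core of the octamer motif bound by Oct4, ATGCAAA, occurred on either strand in the windows of Nanog, Zfp42 and Sox2, and in those of 5.24% of 27025 genes. A Sox core, CATTGT, occurred in the windows of Pou5f1, Nanog and Lin28a, and in those of 14.3% of genes. The joined form, the Sox core and the octamer core with 1 base of any kind between them, occurred in Nanog and in no other of the 27025 genes. The windows of Nanog and Zfp42 are printed because both genes carry an octamer core and their levels moved together in GFP+ spheroid wells. Spearman's rho between them, on the scale described below, was 0.50 in GFP+ and 0.13 in RFP+ spheroid wells. Sox2 carries an octamer core too, and its window is not printed. Control of these genes by Oct4 was not tested. Capitals mark the joined motif in Nanog, 75 to 62 bases before the start, and the octamer core in Zfp42, 185 to 179 bases before it, both read on the opposite strand. The Nanog window is chr6:122707239-122707538 on the plus strand and the Zfp42 window is chr8:43306960-43307259 on the minus strand. A match describes the letters of the window and not a bound site.
Nanog: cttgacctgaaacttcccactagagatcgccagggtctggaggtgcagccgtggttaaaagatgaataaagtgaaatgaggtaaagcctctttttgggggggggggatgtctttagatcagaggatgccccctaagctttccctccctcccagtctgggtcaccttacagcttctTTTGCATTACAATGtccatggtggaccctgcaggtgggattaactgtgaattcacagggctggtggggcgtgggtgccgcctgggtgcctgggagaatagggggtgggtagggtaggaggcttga
Zfp42: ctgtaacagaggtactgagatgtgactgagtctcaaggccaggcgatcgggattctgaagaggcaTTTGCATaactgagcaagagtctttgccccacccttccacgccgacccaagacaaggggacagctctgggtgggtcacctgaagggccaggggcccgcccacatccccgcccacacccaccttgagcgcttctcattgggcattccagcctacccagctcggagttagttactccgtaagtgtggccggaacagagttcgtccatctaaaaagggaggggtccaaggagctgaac

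In the embryo the comparison of GFP+ with RFP+ cells asked whether the heart fields differ in any of these genes. Only Tdgf1 and Lin28a had enough counts to be tested, and neither was called (adjusted p under 0.1, edgeR's quasi-likelihood test with Benjamini-Hochberg adjustment over all genes), where 10.1% of the 8503 genes tested were called, 6.21% higher and 3.88% lower in RFP+ wells. DESeq2 called 12.4% and the fit without a filter 13.2% of genes, and no member. Tdgf1 stood at 0.0, 379, 0.0, 0.0 and 503 CPM in the GFP+ wells A12 to E12. In the RFP+ wells F12, G11, G12 and H11 it stood at 74.4, 34.8, 0.0 and 0.0 CPM. Wells without any Tdgf1 read thus occurred in both populations, and the positive GFP+ wells were above the positive RFP+ wells. The log2 fold change (RFP+ over GFP+) of Tdgf1 was -2.77 (SE 2.13, adjusted p = 0.681 in edgeR), and an exact two-sided permutation test of log2 CPM gave p = 0.841. Lin28a stood at 89.8, 89.9, 25.3, 148 and 168 CPM in GFP+ wells and at 112, 115, 164 and 195 CPM in RFP+ wells. Its groups overlapped, with a log2 fold change of 0.47 (SE 0.60, adjusted p = 0.869 in edgeR) and an exact permutation p of 0.333.

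Sox2 was the member whose embryo groups did not overlap. Of the 15111 genes with a count in any embryo well, 11.7% were higher in every RFP+ than in any GFP+ well and 2.12% the reverse, so this pattern was common. It had 0 counts in all 5 GFP+ wells and 6, 3, 1 and 1 counts in the RFP+ wells, or 0.676 to 4.38 CPM. The exact two-sided permutation test of log2 CPM gave p = 0.00794, the smallest value that 126 splits allow, not adjusted for the members tested. Sox2 was too low for the edgeR filter, and without the filter its adjusted p was 0.109. Dppa5a had 1 count in 3 of 4 RFP+ wells and none in GFP+ wells, with an exact permutation p of 0.0476 that rests on 3 reads in all, and Nanog had 1 read in GFP+ and 4 in RFP+ wells (exact permutation p = 0.286). No gene of the neural list was called between the embryo populations, and 1 was tested. The list of 10 neural genes summed to between 0.0 and 9.26 CPM in GFP+ wells, with 8 genes at 0, and to between 27.03 and 81.0 CPM in RFP+ wells, with 3 genes at 0. Of all genes, 54.5% had no count in GFP+ and 39.9% none in RFP+ embryo wells, and the surface ectoderm list likewise had 7 and 2 genes at 0. The part of neural cells in the Sox2 counts was not tested.

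In spheroids the same comparison called 7 of the 9 members tested, 6 higher in GFP+ and 1 higher in RFP+ wells. The background was high, since 77.9% of the 9940 genes tested were called, 40.1% of them lower and 37.8% higher in RFP+ wells, so the number of calls by itself does not set the members apart. Without well C9, 7 members were called as well. The sizes ranged more widely. Dppa5a was lower in RFP+ wells by a log2 fold change of -3.55 (SE 0.51, adjusted p = 9.2e-10), Zfp42 by -3.40 (SE 0.33, adjusted p = 2.8e-16), Dppa4 by -3.21 (SE 0.19, adjusted p = 1.6e-29) and Utf1 by -2.66 (SE 0.27, adjusted p = 9.9e-16) in edgeR. Dppa5a, Zfp42, Dppa4 and Utf1 were low in most RFP+ wells and passed the filter only through their GFP+ wells. Their edgeR p-values are therefore descriptions. Without the filter, where 60.1% of genes were called, their adjusted p-values in edgeR were 3.0e-09, 8.9e-16, 4.6e-29 and 4.3e-15 in that order. The core factors differed less, Nanog by -1.33 (SE 0.32, adjusted p = 0.000133) and Pou5f1 by -1.11 (SE 0.18, adjusted p = 2.3e-08). Mean levels behind these values were 25.0 CPM (SD 12.48, n = 38) against 11.9 CPM (SD 8.14, n = 46) for Pou5f1 and 231 CPM (SD 280) against 19.1 CPM (SD 72.0) for Dppa5a. Lin28a rose in the other direction, by 1.11 (SE 0.07, adjusted p = 1.4e-26), from 82.0 CPM (SD 26.05) in GFP+ to 183 CPM (SD 34.7) in RFP+ wells. Sox2 had a log2 fold change of -0.36 (SE 0.24, adjusted p = 0.164) and Tdgf1 of 0.15 (SE 0.46, adjusted p = 0.784), with 95% intervals of -0.82 to 0.11 and -0.75 to 1.05.

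**Figure D2:**
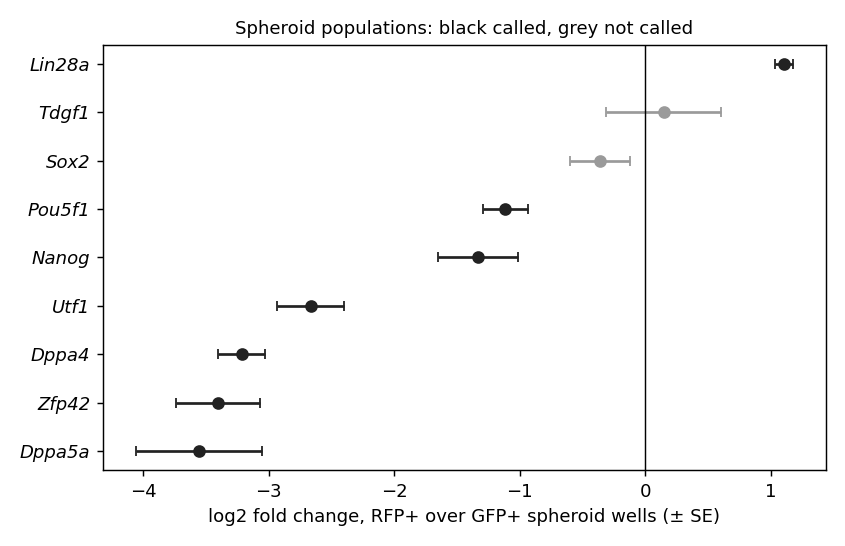
Log2 fold change of the 9 members tested in vitro, RFP+ over GFP+ spheroid wells, on the horizontal axis, with bars of 1 SE from edgeR. Black points were called at an adjusted p under 0.1 and grey points were not, and 6 of the called members lie left of 0 while Lin28a lies right of it at 1.11.

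Dppa3 was too low for the filter, with a median of 5.17 CPM in GFP+ and 0.0 CPM in RFP+ wells. It was called lower in RFP+ wells by DESeq2, where 47.7% of genes were called, and in the fit without a filter, where 60.1% were. Its means were 18.1 CPM (SD 47.9, n = 38) and 1.77 CPM (SD 7.13, n = 46), and a two-sided permutation test with 100000 resamples gave p = 2e-05, the smallest they can give. The same smallest value was reached by Pou5f1, Zfp42, Dppa4, Dppa5a, Utf1 and Lin28a, while Nanog had a permutation p of 0.0004, Sox2 of 0.402 and Tdgf1 of 0.477. The fold change of Dppa5a depended on 3 RFP+ wells. Well C6 held 347 CPM, G2 held 339 CPM and A1 held 117 CPM, with the next well, A5, at 23.8 CPM. Without these wells, which were picked for their Dppa5a level after the data were seen, its log2 fold change was -7.02 instead of -3.55, and the number of members called stayed at 7. Well C6 was also the highest of the 46 RFP+ wells in Pou5f1 (36.9 CPM), Nanog (108 CPM) and Zfp42 (39.8 CPM), and second in Dppa3 (24.3 CPM). G2 was second in Nanog (64.7 CPM) and Utf1 (27.6 CPM). A1 was first in Dppa3 (42.5 CPM) and Utf1 (40.5 CPM) and second in Zfp42 (21.9 CPM), but 28th in Nanog (5.97 CPM).

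Epithelial genes differed in the same direction as most members between the spheroid populations. The list of definitive and foregut endoderm genes summed to between 1974 and 6827 CPM in GFP+ wells and between 131 and 1185 CPM in RFP+ wells, and 6 of its 8 tested genes were lower and 2 higher in RFP+ wells. Its most significant genes were the keratins Krt18, at 2155 CPM (SD 771) against 269 CPM (SD 160), and Krt8, at 1018 CPM (SD 409) against 148 CPM (SD 80.2), which carry the sum. The called genes that were higher in RFP+ wells, named after their values were seen, were the endoderm factors Foxa2, at 2.26 CPM (SD 3.99) against 8.96 CPM (SD 6.59), and Pax9, at 1.33 CPM (SD 2.53) against 12.3 CPM (SD 4.63). Foxa1, Shh and Sox17, which were too low to be tested, also had higher means in RFP+ wells. Of the germ cell list, 4 of 6 tested genes were lower and 2 higher in RFP+ wells, with Ifitm3 at 289 CPM (SD 85.5) against 52.8 CPM (SD 17.5) and Ddx4 at 25.4 CPM (SD 13.5) against 3.47 CPM (SD 3.14), and Ifitm1 in the other direction at 151 CPM (SD 65.1) against 695 CPM (SD 108). The surface ectoderm list summed to a median of 60.8 CPM in GFP+ and 12.0 CPM in RFP+ wells, and its 1 tested gene, Grhl3, was lower in RFP+ wells. Primitive streak genes went the other way, with all 3 tested genes higher in RFP+ wells, T at 17.6 CPM (SD 18.3) against 60.1 CPM (SD 28.1) among them. Neural genes summed to medians of 74.6 and 85.6 CPM, with 1 of 2 tested genes called in each direction. Of the blood and endothelium list 1 gene was tested, Kdr, and it was higher in RFP+ wells. Of the cardiomyocyte list 3 of 4 tested genes were lower in RFP+ wells. The part of these cell types in the members' levels was not tested.

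Other genes of the pluripotency network, from lists that leave out the 10 members, were called in both directions. Of 18 naive pluripotency genes, 6 were tested in vitro, 4 of them lower and 1 higher in RFP+ wells, with a median log2 fold change of -0.96 beside -0.02 over all genes tested. Tfcp2l1, a naive-state transcription factor, stood at 32.4 CPM (SD 14.2) in GFP+ and 3.62 CPM (SD 6.02) in RFP+ wells, and Klf5 at 16.6 CPM (SD 7.17) against 2.68 CPM (SD 2.43). Sall4, a zinc finger partner of Oct4 that is also used in mesoderm, rose from 209 CPM (SD 41.2) to 350.1 CPM (SD 51.1). Of 10 primed pluripotency genes, 5 were tested, 3 higher and 1 lower in RFP+ wells, with a median of 0.55. The de novo methyltransferase Dnmt3b stood at 78.1 CPM (SD 30.9) against 137 CPM (SD 33.1) and Otx2, which is also in the neural list, at 31.02 CPM (SD 27.4) against 45.7 CPM (SD 17.3). Nodal, the ligand, was the gene of this list that fell, from 13.97 CPM (SD 8.53) to 3.06 CPM (SD 3.66).

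The genes around Tdgf1 and Lin28a were also read as lists. Of 13 genes of the Nodal pathway, 8 were tested in vitro, 4 higher and 3 lower in RFP+ wells, with a median of 0.24. The type II receptor Acvr2b rose from 87.4 CPM (SD 23.8) to 176 CPM (SD 25.9), whereas the effector Smad2 fell from 148 CPM (SD 30.8) to 111 CPM (SD 23.8). Of the 7 genes of the Lin28 and let-7 axis found in the table, all were tested, 4 higher and 2 lower in RFP+ wells. Lin28b, the paralogue of Lin28a, stood at 56.1 CPM (SD 47.3) against 86.1 CPM (SD 16.5), and the mRNA-binding protein Igf2bp1 at 160 CPM (SD 35.4) against 256 CPM (SD 27.98). The terminal uridylyltransferase Zcchc6 went the other way, 53.9 CPM (SD 23.7) against 21.9 CPM (SD 7.43).

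The next comparisons asked how far spheroid cells stand from the same reporter population of the embryo. Among GFP+ cells, all 10 members were tested, and 8 were called higher and 1 lower in spheroid wells. Of all 11822 genes tested, 68% were called, 48.3% higher and 19.7% lower (44.9% called by DESeq2 and 55.8% without a filter) and the median log2 fold change over all genes was 0.67. Members with no embryo count pass the filter only through the spheroid wells and had to differ. The number of calls and the p-values of these members, from edgeR and from permutation, are therefore descriptions. The bounds that follow set the mean of the spheroid wells against the embryo limit. Dppa5a was at least 88.3-fold higher in spheroid wells than the embryo limit of 3 counts per library (adjusted p = 9.9e-05), Dppa4 at least 19.2-fold (adjusted p = 5.9e-16), Utf1 at least 14.6-fold (adjusted p = 1.1e-12), Zfp42 at least 13.3-fold (adjusted p = 9.9e-10), Pou5f1 at least 9.58-fold (adjusted p = 2.2e-12), Dppa3 at least 6.91-fold (adjusted p = 0.00148; at least 4.09-fold on the mean of 10.7 CPM without its highest well, F8) and Sox2 at least 2.60-fold (adjusted p = 1.5e-06), all in edgeR. Nanog, with 1 embryo read, also passed the filter only through the spheroid wells, so its adjusted p of 3.4e-06 in edgeR is a description. It stood at 0.0792 CPM (SD 0.177, n = 5) in the embryo against 31.4 CPM (SD 35.3, n = 38) in spheroid wells. The exact permutation tests gave p = 1.04e-06, the smallest value they can give, for Dppa5a and p = 6.23e-06 for Pou5f1, Zfp42, Dppa4, Utf1 and Sox2.

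Tdgf1 was the member called lower in GFP+ spheroids, at 176 CPM (SD 246, n = 5) in the embryo against 16.3 CPM (SD 23.2, n = 38), a log2 fold change of -3.30 (SE 0.87, adjusted p = 0.000932 in edgeR). Both high embryo wells were above every spheroid well, but the other 3 embryo wells had no read, and the exact permutation test of log2 CPM gave p = 0.437. On CPM without the log that test gave p = 0.0111. Lin28a did not pass the test, with 104 CPM (SD 56.3) in the embryo against 82.0 CPM (SD 26.05), a log2 fold change of -0.21 (SE 0.23, adjusted p = 0.459) and an exact permutation p of 0.755. Without embryo well C12, the lowest at 25.3 CPM, its log2 fold change was -0.49 with an adjusted p of 0.0369 in edgeR.

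Among RFP+ cells, 9 members were tested and 5 were called, all higher in spheroid wells, where 42.6% of all 11147 genes tested were called, 22.5% higher and 20.1% lower (21.8% called by DESeq2 and 25.8% without a filter). Pou5f1, Zfp42, Dppa4 and Utf1 had no embryo count and passed the filter only through the spheroid wells. They could be called in no other direction, so their p-values are descriptions. Pou5f1 was at least 5.51-fold higher than the embryo limit (adjusted p = 8.3e-07), Utf1 at least 2.69-fold (adjusted p = 0.00635), Dppa4 at least 2.53-fold (adjusted p = 0.0004) and Zfp42 at least 1.49-fold (adjusted p = 0.0496) in edgeR. These bounds rest on the means of the spheroid wells. The spheroid medians of Utf1, 2.13 CPM, and Zfp42, 0.622 CPM, lay below the embryo limit of 2.17 CPM. Those of Pou5f1, 10.5 CPM, and Dppa4, 4.78 CPM, lay above it. Every one of the 46 spheroid wells held Pou5f1 reads and no embryo well did. The share of all genes that separate these wells in the same way is not given here. Nanog, Dppa5a and Sox2 had few embryo reads and also passed the filter only through the spheroid wells. Their p-values are descriptions too. Nanog stood at 0.716 CPM (SD 1.03, n = 4) against 12.8 CPM (SD 18.6, n = 46), with an adjusted p of 0.0131 in edgeR and an exact permutation p of 0.00749. The call of Zfp42 was not shared by the exact permutation test, which gave p = 0.144, and Zfp42 had no read in 22 of the spheroid wells. Dppa5a was at 0.522 CPM (SD 0.349) against 19.1 CPM (SD 72.0) and was not called (adjusted p = 0.129). Sox2 stood at 1.98 CPM (SD 1.72) against 5.62 CPM (SD 4.06), a log2 fold change of 1.42 (SE 0.71, adjusted p = 0.112), and passed at 0.0615 without embryo well F12. Lin28a stood at 146 CPM (SD 40.2) against 183 CPM (SD 34.7), a log2 fold change of 0.27 (SE 0.15, adjusted p = 0.165), and passed at 0.0376 without embryo well H11. Tdgf1 had a log2 fold change of -0.56 (SE 0.93, adjusted p = 0.675), which turned to 0.62 without embryo well F12. Dppa3 was too low to be tested, at 0.0 CPM in the embryo against 1.77 CPM (SD 7.13), below the embryo limit.

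Genes of the related lists with no embryo count, like the members of that kind, pass the filter only through the spheroid wells, so these counts are descriptions. In GFP+ cells 11 of 15 tested naive genes were called higher and none lower in spheroid wells, with 9 of the 15 at 0 in the embryo, and in RFP+ cells 3 of 7 were called higher and 1 lower. Primed genes were called higher in 6 of 7 tested in each population, and the other 1 was called lower in GFP+ cells. Of the 7, 5 had no embryo count in GFP+ and 1 had none in RFP+ cells. In the Nodal list Foxh1, a nuclear partner of Smad2, was lower in spheroids than in the embryo in GFP+ cells, 150 CPM (SD 74.9) against 48.6 CPM (SD 17.95), and higher in RFP+ cells, 24.7 CPM (SD 19.1) against 62.5 CPM (SD 22.8). It was the gene of that list called between the embryo populations, lower in RFP+ cells with a log2 fold change of -2.60 (SE 0.77, adjusted p = 0.0583). Of the Lin28 and let-7 axis 5 of 7 tested genes were called higher in spheroids in RFP+ cells, Igf2bp1 (187 CPM, SD 30.6, against 256 CPM, SD 27.98) and Trim71 (102 CPM, SD 15.7, against 142 CPM, SD 23.5) among them, and Lin28b was called lower, at 132 CPM (SD 23.8) against 86.1 CPM (SD 16.5). Primitive streak genes were called higher in spheroids in all 4 tested in GFP+ and all 7 tested in RFP+ cells, of which 4 and 5 had no embryo count and could be called in no other direction.

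Whether the GFP+ to RFP+ difference itself differed between embryo and spheroid could be asked for Tdgf1 and Lin28a. The difference of the log2 fold changes (embryo minus spheroid) was -2.91 (SE 2.18, adjusted p = 0.765) for Tdgf1 and -0.64 (SE 0.60, adjusted p = 0.847) for Lin28a, and neither was called, where 5.26% of 8182 genes were, 3.15% above and 2.1% below 0. Both comparisons draw on the same wells as those above.

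The last question was whether the members rise and fall together from well to well. Correlations were taken within each spheroid population on log2 CPM and are given as descriptions, since wells of a population share a plate and are not known to be independent differentiations. The embryo groups hold too few wells. Over the 45 pairs the median Spearman's rho was 0.21 in GFP+ and 0.14 in RFP+ wells, beside 0.04 and 0.00099 over all pairs of the 9940 genes tested in vitro. A rho of at least 0.3 was seen in 19 pairs (42.2%) in GFP+ and 12 pairs (26.7%) in RFP+ wells, beside 6.51% and 3.58% of all gene pairs. In GFP+ wells 6 members, Pou5f1, Nanog, Zfp42, Dppa5a, Utf1 and Tdgf1, made up most of these pairs. The highest rho of Dppa3 was 0.11, to Dppa4, and that of Lin28a 0.06, to Sox2. Lin28a was below 0 with most members, lowest at -0.28 to Dppa5a. Without well C9 its lowest rho was -0.35, to Utf1.

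**Figure D3:**
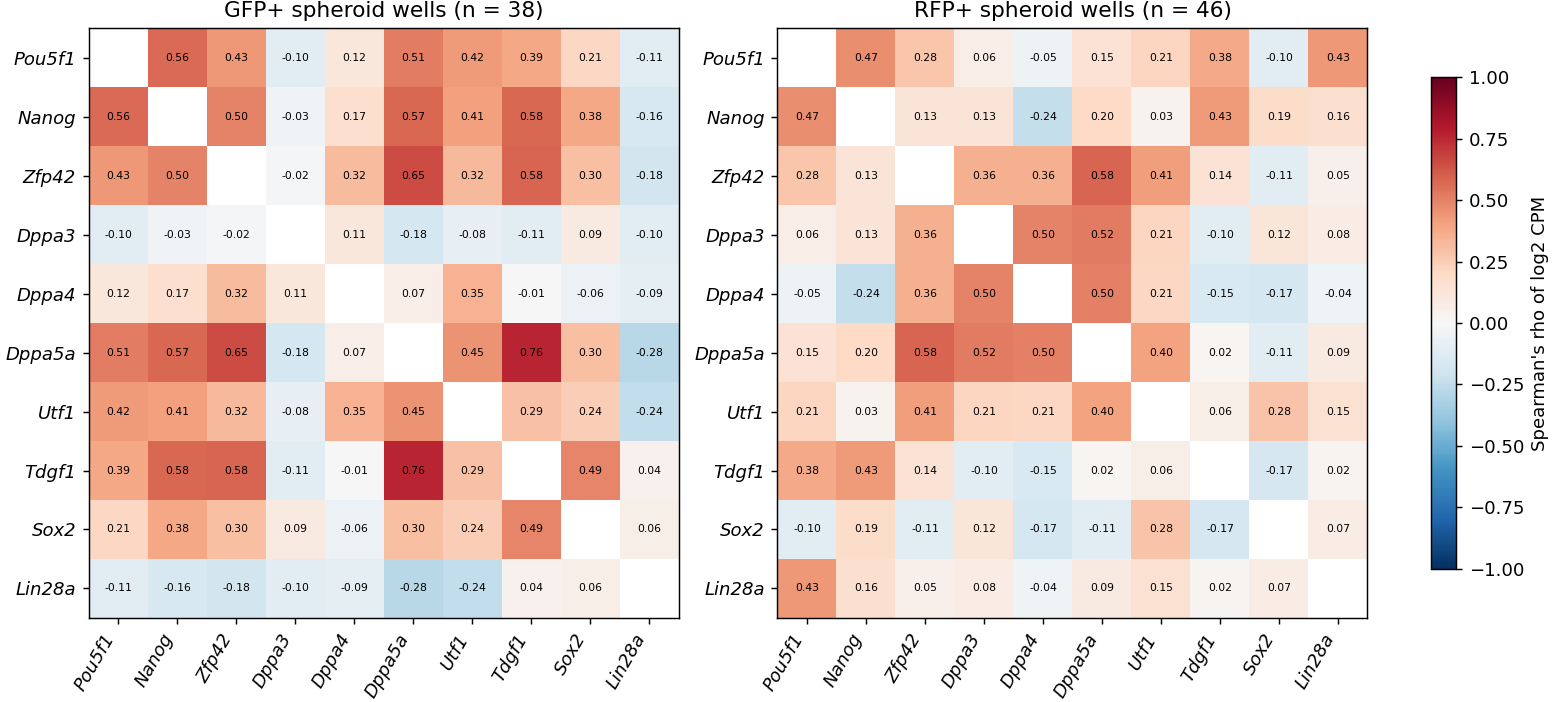
Spearman's rho of log2 CPM for each pair of members across 38 GFP+ (left) and 46 RFP+ (right) spheroid wells, with red for positive and blue for negative values and the value printed in each cell. Dppa5a and Tdgf1 reach 0.76 in GFP+ wells and 0.02 in RFP+ wells. Lin28a runs from -0.28 with Dppa5a to 0.06 with Sox2 on the left.

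Dppa5a had the strongest links in GFP+ wells, with rho of 0.76 to Tdgf1, 0.65 to Zfp42, 0.57 to Nanog, 0.51 to Pou5f1 and 0.45 to Utf1. Among 9939 other genes Tdgf1 ranked second and Zfp42 8th in likeness to Dppa5a. Its pooled values changed little without well C9 (0.77, 0.68, 0.60, 0.55 and 0.47). They did not come evenly from the whole range, because Dppa5a values fell on either side of a gap, 20 wells between 2.62 and 59.9 CPM and 18 between 171 and 1183 CPM. Well C9 is among the 18. The other 17 wells above the gap held 7.78 to 88.3 CPM of Tdgf1. The 20 below it held 0.0 to 4.72 CPM, with 13 of them at 0. Without C9, which had no Tdgf1 read, the levels of Tdgf1 thus did not overlap. The share of all genes that do not overlap across this split is not given here. The depth of these wells did overlap, 828193 to 4371849 reads above and 874172 to 3604850 reads below. Wells above the gap were found in all 5 plate columns, from 1 of 8 wells in column 8 to 6 of 8 in column 9.

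Within either side the link between Dppa5a and Tdgf1 was weak, with rho of -0.09 below and 0.24 above the gap without C9. Splitting wells on Dppa5a narrows its range, which lowers rho by construction, and 13 of the 20 wells below the gap had no Tdgf1 read, so these values do not show that a link is absent. Above the gap, without C9, rho to Dppa5a was 0.71 for Pou5f1, 0.63 for Nanog, 0.57 for Zfp42 and 0.41 for Dppa4, but 0.19 for Utf1, -0.16 for Dppa3, -0.25 for Sox2 and -0.28 for Lin28a. Below it rho was 0.41 for Pou5f1 and 0.22 for Utf1 and between -0.25 and 0.10 for the others. The position of the gap was chosen after the values were seen.

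**Figure D4:**
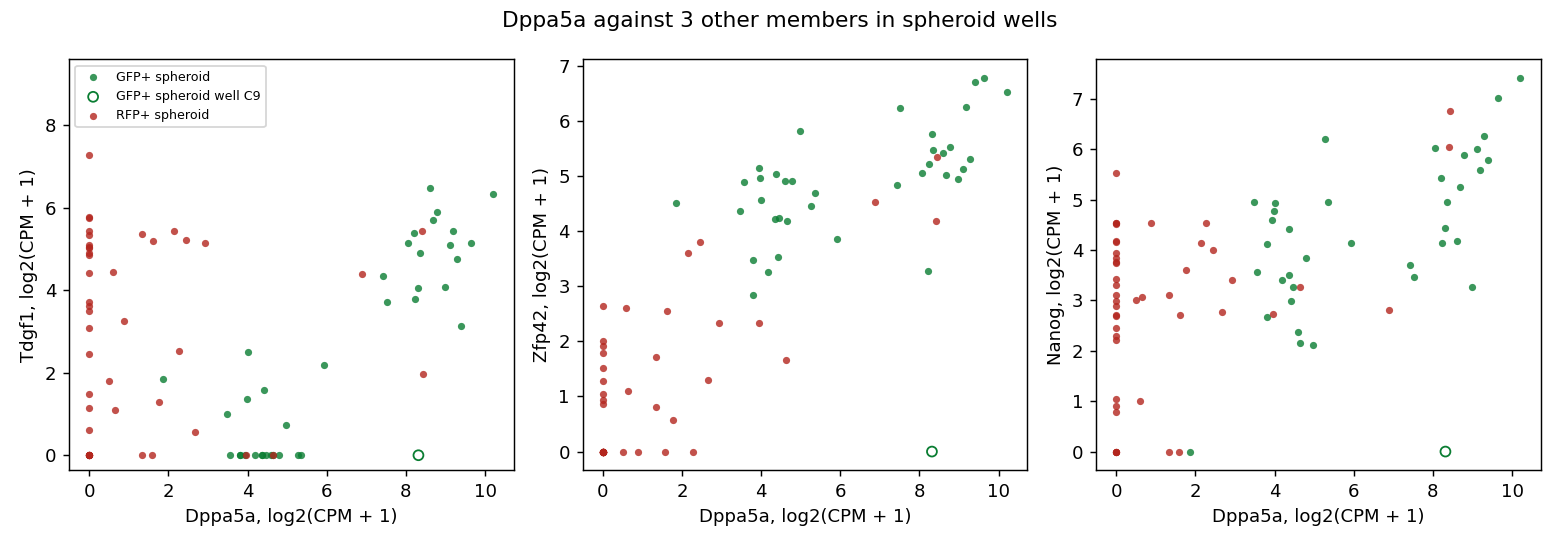
Dppa5a on the horizontal axis against Tdgf1, Zfp42 and Nanog on the vertical axes, all as log2(CPM + 1), with green points for GFP+ and red points for RFP+ spheroid wells and an open circle for the shallow GFP+ well C9. At left, GFP+ wells other than C9 form a lower set with Tdgf1 up to 4.72 CPM and an upper set from 7.78 CPM. RFP+ wells with no Dppa5a read cover the whole range of Tdgf1.

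The RFP+ wells showed another pattern. Dppa5a had rho of 0.58 to Zfp42, 0.52 to Dppa3, 0.50 to Dppa4 and 0.40 to Utf1, but 0.15 to Pou5f1, 0.20 to Nanog and 0.02 to Tdgf1. Zfp42 ranked 4th of 9939 genes in likeness to Dppa5a. Dppa3 and Dppa5a have no count in most RFP+ wells, so these values rest on the wells that hold any read. Pou5f1 was linked instead to Nanog (0.47), Lin28a (0.43) and Tdgf1 (0.38), and Nanog to Tdgf1 (0.43). The difference between the populations in these values was not tested.

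The genes most like the most variable members were taken by rank among all genes tested in vitro, leaving out the members. In GFP+ wells those nearest to Dppa5a were Spp1, which encodes the secreted protein osteopontin (rho 0.81), Gsta4, a glutathione transferase (0.73), Ipo5, a nuclear import receptor (0.71), Mybl2, a cell cycle transcription factor of the naive list (0.67), and Manba (0.67). Those nearest to Tdgf1 were Spp1 (0.74), Eno1b (0.73), Ipo5 (0.69), the glycolytic enzyme gene Pgk1 (0.68) and Ephx2 (0.67), so Spp1 and Ipo5 were named for both. Dppa3 had weaker neighbours, led by Pex6 (0.60), Zfp983 (0.55), Cd164 (0.53), Tmed5 (0.53) and Exoc1 (0.52). In RFP+ wells Tdgf1 was nearest to Nudt17 (0.69), the streak and node factor Lhx1 (0.58), Scarb1 (0.58), Dcp1b (0.55) and Plekha8 (0.54). Dppa5a was nearest to Pdhb (0.67), Crebrf (0.62), Slc20a1 (0.62), Nabp1 (0.58) and the stress factor gene Atf3 (0.58), and Nanog to Gtf2e2 (0.66), Ahcy (0.65), the chaperonin subunit gene Cct5 (0.61), Eif2s1 (0.59) and Hspa8 (0.58). After centring within plate columns the link of Nanog to Hspa8 fell to 0.22.

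Some members have close neighbours in the genome, and these were looked up with their correlation already known. Ooep, an oocyte gene 7.93 kb from Dppa5a on chromosome 9, had rho of 0.86 to it in GFP+ and 0.46 in RFP+ wells. Dppa2 lies 9.67 kb from Dppa4, with rho of 0.34 and 0.21. Dppa3 and Nanog, 77.2 kb apart on chromosome 6, had rho of -0.03 and 0.13. Gdf3, a ligand of the Nodal family 16.3 kb from Dppa3, had rho of 0.06 to Dppa3 in GFP+ and 0.57 in RFP+ wells. Gsta4, named above as near Dppa5a in GFP+ wells, lies 158 kb from it, and its rho in RFP+ wells was -0.02.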

How the data were processed

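RNA was measured in 93 libraries of 10 sorted cells each. The authors trimmed reads with Trimmomatic 0.36, aligned them to mm10 with HISAT2 2.0.4 and counted them per gene with featureCounts 1.5.2; the deposited values are raw counts per gene symbol, and the strand setting and handling of reads with several matches are not given in the sources used here. The 10 members and the gene lists were chosen with earlier results of these data known. Levels are CPM from total counts. Tests were edgeR 4.0.16 quasi-likelihood F-tests on TMM-scaled counts after filterByExpr, on the 2 groups compared, with Benjamini-Hochberg adjustment over all genes tested and calls at an adjusted p under 0.1. The SE was the log2 fold change divided by the root of F. Each member was also tested alone by a two-sided permutation of TMM-scaled log2 CPM (prior count 2), exact where a group has under 10 wells and otherwise with 100000 resamples, unadjusted. The difference between the 2 population effects was tested from separate fits. Correlations used the same scale, except those of genomic neighbours, other than the pair of Dppa3 and Nanog, which used log2 CPM from total counts. Alternatives included DESeq2 1.42.0, other scalings, no filter, a threshold of 0.05, leaving out each embryo library, summed wells and plate terms. The scripts were tested on simulated data with known answers. All 10 members were named, with at most 3 called genes of each list per comparison and the 5 genes nearest to the 3 most variable members of each spheroid population; neighbours in the genome were added after their values were seen. Gene positions and exonic lengths are from GENCODE M21 (GRCm38). In RFP+ spheroid wells, libraries of columns 3 and 4 of the same row were close (chi-square per gene 1.33 to 2.29, beside 4.10 to 7.62 for columns 5 and 6) but differed by more than sampling noise and were kept apart.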

Additional observations from a re-analysis of the deposited data

Results flagged for a closer look

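In each of the embryo groups, every member with any count was checked for a well that stood far from the others relative to the group's range (8 checks in all). The rule is set to flag about 1 in 20 groups of continuous values by chance. That rate does not hold for values that rest on single reads. Nanog in GFP+ embryo wells was picked out for well B12, at 0.396 CPM from 1 read while the other 4 wells had none. Dppa5a in RFP+ embryo wells was picked out for well G12, at 0.0 CPM while the other 3 wells had 1 read each. Both rest on a difference of 1 read.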

How the results depend on the processing

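The number of members called stayed at 0 in the embryo comparison under all alternatives run, including DESeq2 and no filter, lay at 7 or 8 in the spheroid comparison, where DESeq2 and the fit without a filter added Dppa3, at 9 or 10 for GFP+ and at 5 or 6 for RFP+ cells between spheroid and embryo. Leaving out an embryo library gave 0 to 0, 9 to 10 and 5 to 6 members in the 3 comparisons that hold them. The difference between the population effects was also taken as an interaction term in a single edgeR fit with 1 shared spread. There 2 of 10 members passed, where 54.4% of 12655 genes did, so the number of calls does not set the members apart. They were Lin28a (-0.65, adjusted p = 0.0419) and Sox2 (adjusted p = 0.000708), the latter not tested in the separate fits. In the separate fits no member passed, also with an embryo library left out. The direction of Tdgf1 between RFP+ spheroid and embryo wells was not stable: its log2 fold change was 0.62 without RFP+ embryo well F12 and -0.97 without H11, and the difference in the permutation test was 0.30 with a prior count of 0.5. Lin28a passed in RFP+ cells with total counts in place of TMM (adjusted p = 0.086). On CPM without the log the exact permutation tests of Nanog (p = 0.0510), Dppa3 (p = 0.118) and Dppa5a (p = 0.0555) in GFP+ and of Nanog (p = 0.118) and Utf1 (p = 0.127) in RFP+ cells no longer passed 0.05. The cause was not tested. The median rho between members moved by less than 0.1 under each alternative, to 0.14 in GFP+ wells without C9 and to 0.08 in RFP+ wells without the 2 wells farthest from the median. No paired analysis was possible because the labels give well positions and no replicate numbers shared between groups. Depth limits the embryo zeros to 3 counts per library.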
